A study of Mus musculus with 32 samples.

Results

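The immunity-related GTPases were followed through an RNA sequencing experiment on BV-2 cells, an immortalised mouse microglial line. Members were the rows of the deposited table with the gene names Iigp1, Irgm1, Irgm2, Igtp, Ifi47, Tgtp1 and Tgtp2, which gave 7 of 45706 genes. Wild-type cells of this line had been transfected with a scramble control or with a mimic, a synthetic copy of the mature microRNA, of miR-7a-5p, of miR-29a-3p or of miR-146a-5p, and each transfection was combined with vehicle (VEH) or with lipopolysaccharide (LPS), a component of bacterial outer membranes, at 10 ng/ml for 24 h. This made 8 groups of 4 libraries, named here by treatment and mimic (for example LPS_miR-7a). Every group was transfected, so no untransfected cells were compared. The labels place LPS before transfection, whereas the study's methods describe transfection first for its phagocytosis assay, and the order used for the sequenced cells was not settled here. The methods describe BV-2 replicates as independent experiments. In these bulk samples, a change in the number of cells that express a gene and a change in RNA per cell cannot be told apart.

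Immunity-related GTPases are interferon-inducible GTP-binding proteins that protect mouse cells against intracellular parasites and bacteria. The effectors, among them Iigp1 (Irga6), Ifi47 (Irgd) and the closely related Tgtp1 and Tgtp2 (Irgb6), load onto the membrane around an engulfed parasite. The regulators Irgm1, Irgm2 and Igtp (Irgm3) sit on the cell's own membranes and hold the effectors inactive there.

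The mature microRNAs are shown because the seed of each mimic sets which 3′ UTR letters could pair with it. The RefSeq sequences (GRCm38.p6) read 5′ to 3′ with the seed, bases 2 to 8, in capitals, and the 3 seeds differ.
mmu-miR-7a-5p: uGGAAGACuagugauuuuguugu
mmu-miR-29a-3p: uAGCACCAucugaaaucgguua
mmu-miR-146a-5p: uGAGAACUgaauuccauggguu

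Seed matches were counted in the longest annotated 3′ UTR of each member (GENCODE vM21, GRCm38). For miR-7a-5p, Irgm2 held 1 8mer match, and Irgm1, Tgtp1 and Tgtp2 held 1 7mer-A1 match each. For miR-29a-3p, Tgtp1 and Tgtp2 held 1 7mer-m8 match each and Iigp1 held 1 7mer-A1 match. No member held a match for miR-146a-5p, and Igtp and Ifi47 held none for any mimic. Of 21173 genes with an annotated 3′ UTR, 24.8% held a match for miR-7a-5p, 17.1% for miR-29a-3p and 19.2% for miR-146a-5p, whatever the length of the UTR. Examples of these matches are printed, with the matched letters in capitals. Tgtp1 and Tgtp2 had the same letters around each of their matches.
Irgm2, miR-7a-5p, chr11:58221829-58221856, plus strand: ttcagagtggGTCTTCCAaccttcatga
Irgm1, miR-7a-5p, chr11:48865759-48865785, minus strand: gtacccttctTCTTCCAcagaagccag
Tgtp2, miR-29a-3p, chr11:49057939-49057965, minus strand: atggtagtatTGGTGCTttgtcactaa

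RefSeq promoter windows around the gene starts (GRCm38.p6) were searched on both strands for the core of the interferon-stimulated response element, which reads GAAA, any 2 bases and GAAA, and for the gamma-activated site, TTCNNNGAA. Of the 6 members with a promoter in the table, 5 held the first motif and 4 of these also held the second. Irgm2, Igtp, Tgtp1 and Tgtp2 held both, in places that did not overlap. Irgm1 held 2 overlapping copies of the first motif and none of the second, Ifi47 held neither in this window, and Iigp1 was not in the table. Over 32851 promoters, 3.44% held the first motif, 8.30% the second and 0.454% both. The windows with the first motif in capitals show how alike the promoters of Irgm2 and Igtp are, and likewise those of the Tgtp pair.
Irgm1, chr11:48871425-48871454, minus strand: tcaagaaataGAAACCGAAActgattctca
Irgm2, chr11:58214903-58214932, plus strand: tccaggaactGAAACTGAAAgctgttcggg
Igtp, chr11:58199512-58199541, plus strand: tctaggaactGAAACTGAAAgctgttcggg
Tgtp1, chr11:48992304-48992333, minus strand: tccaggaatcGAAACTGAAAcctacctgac
Tgtp2, chr11:49064263-49064292, minus strand: tccaggaatcGAAACCGAAAcctactctga

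Iigp1 lies on chromosome 18 and the other 6 members on chromosome 11, and all are annotated as protein coding. Irgm2 (chr11:58199618-58222782) and Igtp (chr11:58199556-58207591) overlap on the same strand, so reads could be divided between them. Tgtp1 (chr11:48985327-48994172) and Tgtp2 (chr11:49057194-49064206) are near-identical copies whose shares are uncertain, and their sum is given as well. Tgtp1 also overlaps Gm12185 on its own strand, Ifi47 (chr11:49076587-49096974) overlaps Olfr56 on its own strand and the pseudogene Gm12188 on the other, and both Tgtp genes lie opposite Olfr56. Irgm1 (chr11:48861968-48871683) overlaps no other annotated gene.

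Levels are CPM values, counts scaled to a common library total with TMM factors, computed from estimated counts whose lost decimal marks had been restored. Library totals ran from 1210000 to 20800000 counts, and 3 counts were worth 0.144 to 2.48 CPM. Small structural RNA genes took 2.62% to 38.6% of a library. The labels call the cells glioblastoma, and 11 microglial markers summed to 1899 to 4238 CPM, although Cx3cr1 was at 0 in 5 libraries and Tmem119 in 2. The sums reached at most 17.6 CPM for 3 oligodendrocyte markers, 2.38 CPM for 3 neuronal markers, 1.34 CPM for 3 astrocyte markers and 0.535 CPM for 4 markers of T and NK cells, of which Nkg7 was at 0 throughout. Of 185 member values above 0, 5 could not be read with certainty, 4 of them in Tgtp1 and 1 in Tgtp2, and a gene with such a value was left out of the comparisons that use that library. Another 3 readings lay closest above the limit of 0.9, with posteriors of 0.902 for Ifi47 in LPS_scramble replicate 4, 0.924 for Iigp1 in LPS_miR-7a replicate 4 and 0.928 for Tgtp2 in VEH_scramble replicate 4.

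**Figure D1:**
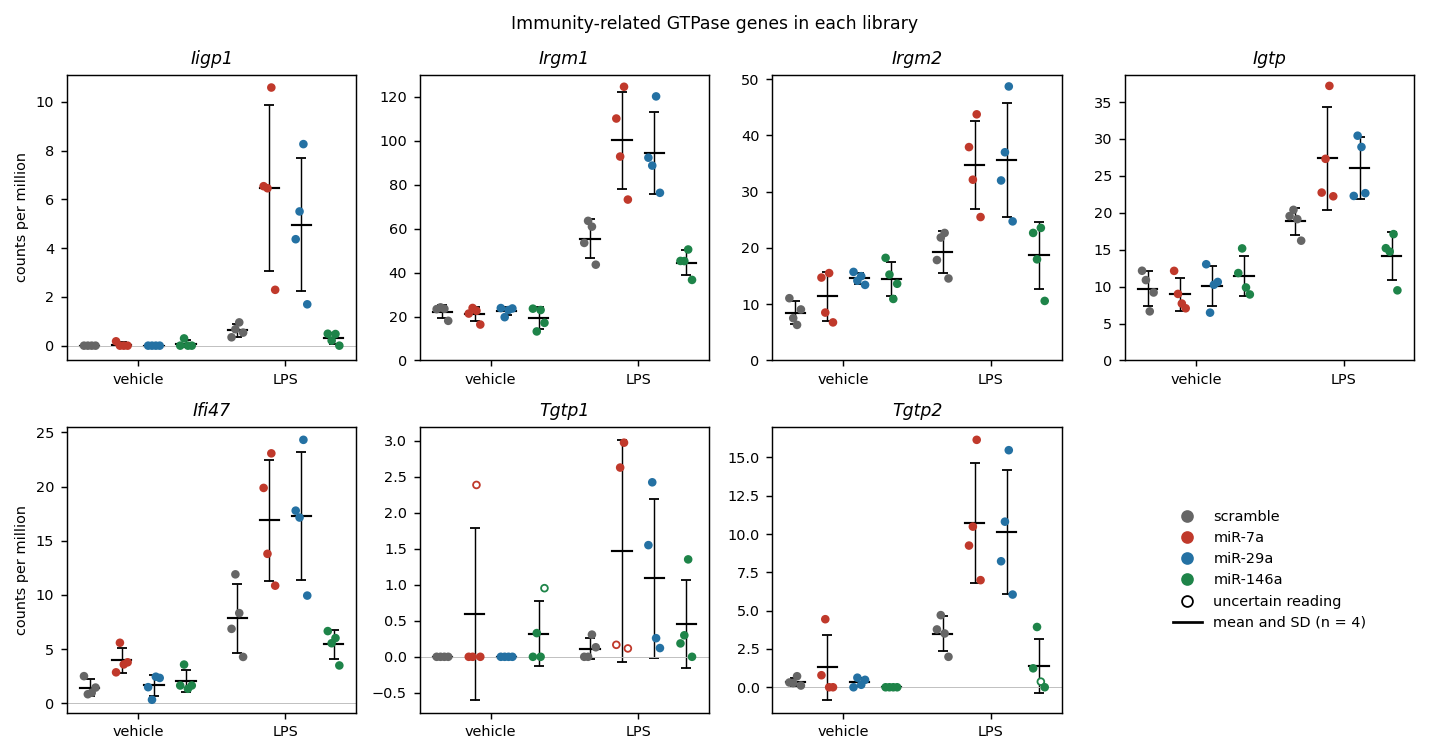
Level of each member in the 32 libraries, in CPM on a linear axis that differs between panels. Points are libraries coloured by mimic, open where the reading is uncertain, and black lines give the mean and SD of 4 libraries; for each member the LPS_miR-7a and LPS_miR-29a groups have the highest means.

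LPS raised the immunity-related GTPases in scramble-transfected cells. Of the 7 members 5 could be tested and 5 were called, all of them higher, where 18% of 12284 genes were called in either direction (limma-voom, Benjamini-Hochberg adjusted p under 0.05 and a log2 fold change beyond 0.3). Irgm1, Irgm2 and Igtp reached the level of the filter on low counts in all libraries of both groups, and 3 of these 3 were called. Ifi47 and Tgtp2 reached it in all LPS libraries but in only 2 and 0 vehicle libraries, so they entered the test through the group where they are high, and their calls are a description. Among the regulators, Irgm1 measured 23.4, 24.2, 23.5 and 18.04 CPM in VEH_scramble and 53.5, 63.6, 60.9 and 43.6 CPM in LPS_scramble. The groups did not overlap, and the log2 fold change was 1.305 ± 0.18 (SE, limma-voom adjusted p = 0.000605). Irgm2 rose from 6.32 to 11.1 CPM under vehicle to 14.6 to 22.7 CPM under LPS, by a log2 fold change of 1.11 ± 0.23 (SE, limma-voom adjusted p = 0.00773). Igtp rose by 0.91 ± 0.20 on the log2 scale (SE, limma-voom adjusted p = 0.0098), again without overlap of the groups. Structural RNA took 6.71%, 11.8%, 10.4% and 9.78% of the VEH_scramble libraries and 5.78%, 2.91%, 4.29% and 3.40% of the LPS_scramble libraries. Its part in the result was not tested.

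Of the effectors, Tgtp2 and Ifi47 could be tested. Tgtp2 measured 0.312, 0.275, 0.721 and 0.112 CPM under vehicle and 3.77, 4.71, 3.51 and 1.99 CPM under LPS. The groups did not overlap, with a log2 fold change of 3.07 ± 0.57 (SE, limma-voom adjusted p = 0.00431). Ifi47 measured 2.49, 0.824, 0.961 and 1.44 CPM under vehicle and 6.86, 11.9, 8.31 and 4.27 CPM under LPS. All LPS libraries were above the vehicle libraries, with a log2 fold change of 2.26 ± 0.50 (SE, limma-voom adjusted p = 0.0105). The Ifi47 value of LPS_scramble replicate 4 rests on a reading whose posterior, 0.902, was just above the minimum of 0.9.

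Iigp1 and Tgtp1 were too low in scramble cells to pass the filter on low counts. Iigp1 was at 0 in all 4 VEH_scramble libraries and at 0.343, 0.672, 0.954 and 0.534 CPM in LPS_scramble, at least 5.22-fold higher with 3 counts over the vehicle group taken as the floor. Such bounds and ratios compare counts pooled over a group, divided by its pooled library sizes, and so differ from ratios of the group means. Tgtp1 was at 0 in all 4 VEH_scramble libraries and above 0 in 2 LPS_scramble libraries, at 0.308 and 0.132 CPM. The Tgtp sum rose by a log2 fold change of 3.14 ± 0.56 (SE, limma-voom adjusted p = 0.00327). It equals Tgtp2 in the vehicle libraries, so it too entered the test through the LPS group, and this value is a description.

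With the miR-29a mimic, LPS raised 6 of 6 tested members (26.7% of 12250 genes called in either direction). Of these, Iigp1, Tgtp2 and Ifi47 entered the test through the LPS group, with 0, 0 and 3 vehicle libraries at the level of the filter, and 3 of the 3 that reached it in both groups were called. The smallest change was that of Irgm2, at 1.27 ± 0.23, and Irgm1, Igtp, Ifi47 and Tgtp2 rose by 2.01, 1.35, 3.34 and 4.92 on the log2 scale. Iigp1 was at 0 in all VEH_miR-29a libraries and at least 45.3-fold higher under LPS, and Tgtp1, too low for the test, was at least 8.80-fold higher, both in pooled counts against 3 counts over the vehicle group. Of the 54.3 pooled LPS counts of Tgtp1, 38.7 are in LPS_miR-29a replicate 2, so its bound rests largely on that library. The fitted log2 fold change of Iigp1, 5.69, depends on the count added to the zeros and is no bound.

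With the miR-7a mimic, LPS also raised 6 of 6 tested members (6.84% of 11841 genes called in either direction). Iigp1 and Tgtp2 entered the test through the LPS group, with 0 and 1 vehicle libraries at the level of the filter, and 4 of the 4 that reached it in both groups were called. Irgm1 rose by 2.16 ± 0.25 on the log2 scale (SE, limma-voom adjusted p = 0.00035), and Irgm2, Igtp, Ifi47 and Tgtp2 by 1.39, 1.37, 2.11 and 3.46. Iigp1 had 1 count in all over the VEH_miR-7a libraries and 286 over the LPS_miR-7a libraries, a pooled ratio of 60.6 with an exact 95% interval from 10.8 to 2403 that covers counting error only. Of these, 139 counts are the reading in LPS_miR-7a replicate 3, which rests on group levels. The call of Iigp1 was lost in 7 of 8 refits that each left out 1 library, all but the refit without LPS_miR-7a replicate 4, against 3 for Igtp, 2 each for Ifi47 and Tgtp2, 1 for Irgm2 and 0 for Irgm1. Tgtp1 had uncertain values. The number of calls fell to 3 without VEH_miR-7a replicate 1, 2 or 3 or without LPS_miR-7a replicate 2. Structural RNA took 35.6% to 38.6% of VEH_miR-7a replicates 2 to 4, whose totals were 1210000 to 2469000 counts, and the part of this in the result was not tested.

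With the miR-146a mimic, LPS raised 2 of 4 tested members (4.61% of 12055 genes called in either direction). Irgm1 measured 23.6, 13.2, 22.96 and 17.1 CPM under vehicle and 45.3, 45.3, 50.5 and 36.7 CPM under LPS. Its groups did not overlap, with a log2 fold change of 1.31 ± 0.20 (SE, limma-voom adjusted p = 0.00173). Ifi47 had a log2 fold change of 1.56 ± 0.41 (SE, limma-voom adjusted p = 0.0447), although LPS_miR-146a replicate 4, at 3.48 CPM, lay below VEH_miR-146a replicate 2, at 3.56 CPM. This call of Ifi47 was kept with DESeq2 and lost with edgeR, without the filter on low counts, with the replicate block and with restoration without group levels. Irgm2 and Igtp measured 0.54 ± 0.25 and 0.42 ± 0.24 on the log2 scale and did not pass the test (SE, limma-voom adjusted p = 0.27 and 0.39). Iigp1 had 2 counts over the vehicle group and 12 over the LPS group, and Tgtp1 had uncertain values. Tgtp2 was at 0 in all VEH_miR-146a libraries and, with its uncertain LPS value at the lowest reading, at least 13.6-fold higher under LPS in pooled counts, but was not tested. Of its 54.1 pooled LPS counts, 37.6 are in LPS_miR-146a replicate 2 and 0 in replicate 4, so this bound rests largely on replicate 2. Irgm1 alone was called without VEH_miR-146a replicate 1, 3 or 4 or without LPS_miR-146a replicate 1, 2 or 3.

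**Figure D2:**
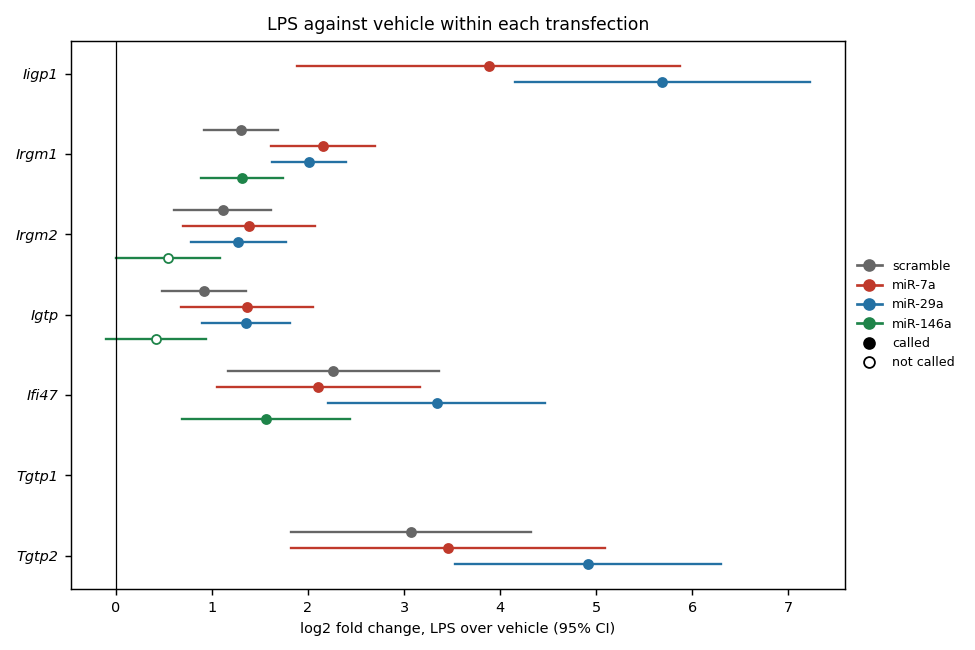
Log2 fold change of LPS over vehicle for each member within the 4 transfections, with lines for the 95% confidence interval. Filled points were called and open points were not; every tested value lies above 0, and Tgtp1 was not tested.

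The mimics were next compared with scramble under LPS. Each tested member had a higher mean with miR-7a and with miR-29a than with scramble, and 3 of 6 were called for miR-7a and 4 of 6 for miR-29a. Iigp1, called in both, reached the level of the filter in 1 LPS_scramble library and entered the test through the mimic groups. Among the 5 members that reached it in all libraries of both groups, 2 were called for miR-7a and 3 for miR-29a. Of all genes, 2.85% of 13034 were called in either direction for miR-7a and 4.9% of 13314 for miR-29a. Both comparisons use the same 4 LPS_scramble libraries.

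Among the effectors, Iigp1 measured 6.54, 6.46, 10.6 and 2.29 CPM in LPS_miR-7a and 4.37, 5.51, 8.27 and 1.70 CPM in LPS_miR-29a, against 0.343 to 0.954 CPM in LPS_scramble. Neither mimic group overlapped scramble at these readings. The log2 fold changes were 3.05 ± 0.56 for miR-7a and 2.84 ± 0.55 for miR-29a (SE, limma-voom adjusted p = 0.0185 and 0.015). The highest miR-7a value, that of replicate 3, rests on a deposited 139 read as 139 counts. Restored without group levels it was read as 0.139 counts, which would lie below every LPS_scramble library, and it was the 1 member value of 185 whose reading changed. Without LPS_miR-7a replicate 3 the log2 fold change of Iigp1 was 2.69 and Iigp1 was still called. Tgtp2 measured 9.25, 10.5, 16.1 and 6.99 CPM with miR-7a and 8.22, 10.8, 15.5 and 6.05 CPM with miR-29a, all above the 1.99 to 4.71 CPM of scramble. It rose by 1.68 ± 0.33 and 1.69 ± 0.35 on the log2 scale (SE, limma-voom adjusted p = 0.0218 and 0.0198). The Tgtp sum, with uncertain values at their likeliest reading, rose by 1.77 and 1.76, and Tgtp1 alone was uncertain in LPS_miR-7a replicates 1 and 4 and too low for the miR-29a test. Ifi47 measured 19.9, 13.8, 23.1 and 10.8 CPM with miR-7a and 17.8, 17.1, 24.3 and 9.93 CPM with miR-29a, and both groups overlapped scramble. Its log2 fold changes, 1.14 ± 0.33 and 1.23 ± 0.34, did not pass the test (SE, limma-voom adjusted p = 0.0884 and 0.0582).

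Among the regulators, Irgm1 measured 110.2, 92.8, 125 and 73.3 CPM in LPS_miR-7a and 92.3, 88.7, 120.2 and 76.3 CPM in LPS_miR-29a, all above the LPS_scramble libraries. It rose by 0.82 ± 0.18 and 0.75 ± 0.17 on the log2 scale (SE, limma-voom adjusted p = 0.0375 and 0.0271). Irgm2, whose 3′ UTR holds the 8mer match for miR-7a-5p, measured 37.9, 32.1, 43.7 and 25.5 CPM with miR-7a and 31.99, 37.0, 48.7 and 24.7 CPM with miR-29a, against 17.8, 21.8, 22.7 and 14.6 CPM with scramble. The groups did not overlap, and the difference was called for miR-29a, at 0.90 ± 0.22, but not for miR-7a, at 0.83 ± 0.20 (SE, limma-voom adjusted p = 0.0402 and 0.0526). That call was lost in 7 of 8 refits that each left out 1 library, all but the refit without LPS_miR-29a replicate 4. Igtp measured 22.7, 27.3, 37.2 and 22.2 CPM with miR-7a and 22.3, 30.4, 28.9 and 22.7 CPM with miR-29a, above the 16.2 to 20.4 CPM of scramble. Its log2 fold changes, 0.52 ± 0.18 and 0.50 ± 0.15, did not pass the test (SE, limma-voom adjusted p = 0.147 and 0.0822).

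Same-numbered libraries varied together in these comparisons, and with the replicate number as a block 6 of 6 members, Iigp1 included, were called for each of the 2 mimics. The block also raised the share of all genes called, to 15.9% of 13034 for miR-7a and 19.4% of 13314 for miR-29a. The blocked log2 fold changes of the members not called before were 0.80 for Irgm2, 0.55 for Igtp and 1.04 for Ifi47 with miR-7a (limma-voom adjusted p = 0.000484, 0.0101 and 0.00328). With miR-29a they were 0.50 for Igtp and 1.09 for Ifi47 (limma-voom adjusted p = 0.00785 and 0.00115). Without the block the numbers of calls moved with single libraries. Of the 8 refits that each left out 1 library, the call was lost for Irgm1 in 6 with miR-7a and 5 with miR-29a, for Tgtp2 in 5 and 3, and for Iigp1 in 4 and 1. For miR-7a, 0 members were called without LPS_scramble replicate 3 or 4 or LPS_miR-7a replicate 2, and 1 without LPS_scramble replicate 1 or LPS_miR-7a replicate 3. For miR-29a, 0 were called without LPS_scramble replicate 4, 1 without LPS_scramble replicate 3 or LPS_miR-29a replicate 3, and 2 without LPS_scramble replicate 1 or LPS_miR-29a replicate 1.

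With miR-146a under LPS, 0 of 4 tested members were called by limma-voom, 0 had an unadjusted p under 0.05, and edgeR and DESeq2 called 0 (2.39% of 12578 genes called). Irgm1, at 45.3, 45.3, 50.5 and 36.7 CPM, overlapped scramble with a log2 fold change of -0.28 (95% interval -0.61 to 0.05). With the replicate block, where 14% of all genes were called, it was called at -0.33 (limma-voom adjusted p = 0.0331). Igtp, at 15.2, 14.7, 17.1 and 9.50 CPM, differed by -0.34 (95% interval -0.73 to 0.04). Ifi47, at 6.65, 5.53, 6.01 and 3.48 CPM, differed by -0.33 (95% interval -1.11 to 0.45), and Irgm2 by 0.03 (95% interval -0.47 to 0.53), a sign that turned under other settings. Iigp1, at 0.489, 0.209, 0.477 and 0 CPM, and Tgtp1 were too low to be tested. Tgtp2 measured 1.24, 3.93 and 0 CPM in replicates 1, 2 and 4, and replicate 3 could be read as 3.839 or 38.39 counts. The Tgtp sum differed by -1.15 ± 0.67 at the first of these readings and by -0.69 at the second, and did not pass the test (SE, limma-voom adjusted p = 0.412 and 0.665).

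**Figure D3:**
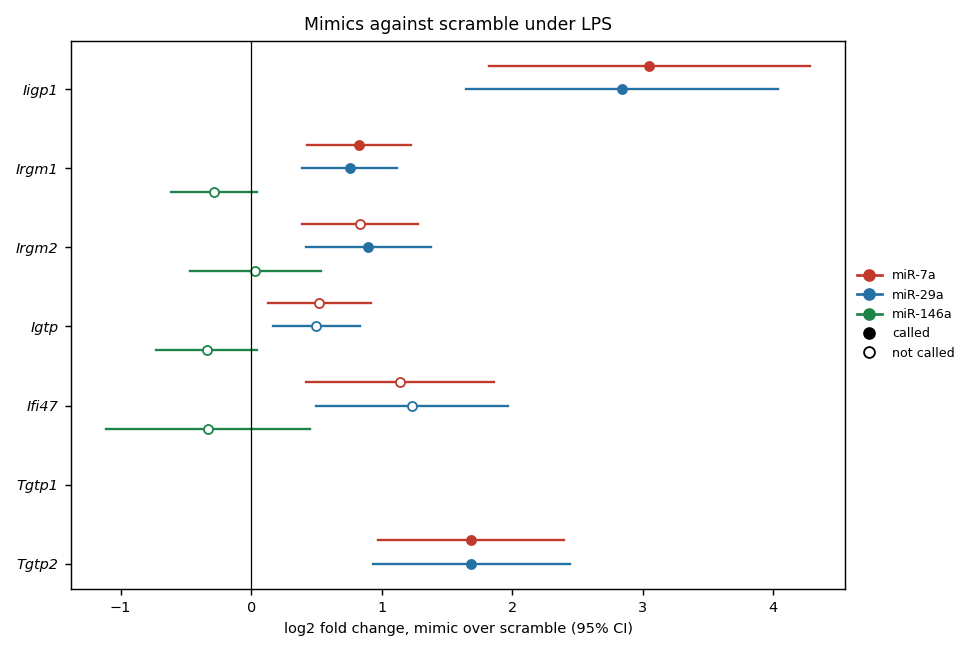
Log2 fold change of each mimic over scramble under LPS for the members that were tested, with lines for the 95% confidence interval. Filled points were called; the miR-7a and miR-29a values lie between 0.50 and 3.05, and the miR-146a values between -0.34 and 0.03.

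The mimics were compared with each other at the same LPS dose and time. Between miR-7a and miR-29a, 0 of 6 members were called by limma-voom, 0 had an unadjusted p under 0.05, and edgeR and DESeq2 called 0 (3.77% of 12897 genes called). The 95% interval of the log2 difference ran from -0.34 to 0.48 for Irgm1, from -0.55 to 0.43 for Irgm2, from -0.39 to 0.44 for Igtp, from -0.72 to 0.56 for Ifi47, from -0.66 to 0.69 for Tgtp2 and from -0.86 to 1.33 for Iigp1. Against miR-146a, 4 of 5 tested members were higher with miR-7a (6.29% of 12516 genes called in either direction) and 5 of 5 with miR-29a (12% of 12542). Iigp1 reached the level of the filter in 0 LPS_miR-146a libraries, and without it the counts were 3 of 4 and 4 of 4. Tgtp2 was left out for its uncertain LPS_miR-146a value, and Tgtp1 for uncertain or low values. Iigp1 was higher by 4.15 ± 0.83 with miR-7a and 3.92 ± 0.80 with miR-29a, Irgm1 by 1.11 ± 0.18 and 1.04 ± 0.17, Igtp by 0.88 ± 0.22 and 0.85 ± 0.20, and Ifi47 by 1.49 ± 0.31 and 1.58 ± 0.32 (log2, SE). Irgm2 was called with miR-29a, at 0.88 ± 0.26, but not with miR-7a, at 0.82 ± 0.24 (SE, limma-voom adjusted p = 0.0449 and 0.0665), and was called for miR-7a with the replicate block, where 20.8% of all genes were called (limma-voom adjusted p = 0.00121). The miR-29a call of Irgm2 was lost without the filter on low counts and without any 1 of the 8 libraries other than LPS_miR-29a replicate 4. The miR-7a call was lost in 6 of 8 such refits for Igtp, 3 for Iigp1, 2 for Ifi47 and 0 for Irgm1. Without LPS_miR-146a replicate 3 the miR-7a count fell to 1, and without LPS_miR-146a replicate 1 or 2 or LPS_miR-7a replicate 3 it fell to 2.

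Under vehicle 0 members were called for any mimic by limma-voom, edgeR or DESeq2, of 4 tested for miR-7a, 3 for miR-29a and 4 for miR-146a. Of all genes, 0.171% of 11113, 0.00858% of 11658 and 2.01% of 11762 were called. In each comparison 1 member had an unadjusted p under 0.05. For miR-7a this was Ifi47, at 2.85, 5.58, 3.58 and 3.77 CPM against 0.824 to 2.49 CPM in VEH_scramble, with a log2 fold change of 1.24 ± 0.48 (SE, limma-voom adjusted p = 0.323). Ifi47 reached the level of the filter in 4 VEH_miR-7a libraries and 1 VEH_scramble library, so it entered this test through the group where it is high, and its values are a description. For miR-29a it was Irgm2, at 15.7, 14.2, 15.0 and 13.4 CPM against 6.32 to 11.1 CPM, with 0.73 ± 0.22 (SE, limma-voom adjusted p = 0.285). For miR-146a it was again Irgm2, with 0.62 ± 0.24 and overlapping groups (SE, limma-voom adjusted p = 0.143). Tgtp2, too low to be tested here, was at 0 in all 4 VEH_miR-146a libraries and at 0.786, 4.44, 0 and 0 CPM in VEH_miR-7a, against 0.112 to 0.721 CPM in VEH_scramble. Iigp1 reached at most 0.297 CPM in a vehicle library. Tgtp1 was at 0 in all VEH_scramble and VEH_miR-29a libraries, but VEH_miR-7a replicate 3 and VEH_miR-146a replicate 4 had uncertain readings of 2.38 and 0.952 CPM. The VEH_miR-7a values rest on few counts. Replicates 2 to 4 are the libraries with 35.6% to 38.6% structural RNA, in which 3 counts were worth 1.215 to 2.48 CPM, and replicate 2 had 7 counts of Ifi47 and 5.577 of Tgtp2, replicate 3 had 6 of Ifi47 and 4 of Tgtp1, and replicate 4 had 3 of Ifi47. The part of depth and structural RNA in these values was not tested.

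Whether a mimic effect differed between LPS and vehicle was tested as an interaction over 16 libraries. By limma-voom, edgeR and DESeq2, 0 of 6 members passed for miR-7a, 0 of 6 for miR-29a and 0 of 4 for miR-146a (0.0739%, 0.0162% and 0% of genes called), and 1, 2 and 0 had an unadjusted p under 0.05. Irgm1 had an interaction of 0.86 ± 0.30 for miR-7a and 0.71 ± 0.24 for miR-29a on the log2 scale (SE, limma-voom adjusted p = 0.688 and 0.596). Iigp1 had 2.82 ± 1.10 for miR-29a, a fitted value that depends on the count added to zeros (SE, limma-voom adjusted p = 0.656). The higher levels of the members with miR-7a and miR-29a under LPS were thus not shown to differ from the mimic effects under vehicle.

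LPS_miR-7a and LPS_miR-29a had the highest means of the 8 groups in each member, with LPS_miR-29a first for Irgm2 and Ifi47 and LPS_miR-7a first for the others. For Irgm1 the means were 100.2 ± 22.2 CPM in LPS_miR-7a, 94.4 ± 18.5 in LPS_miR-29a, 55.4 ± 8.94 in LPS_scramble, 44.4 ± 5.74 in LPS_miR-146a and 19.2 to 22.5 in the vehicle groups (SD, n = 4). The first pair overlapped, as did LPS_scramble and LPS_miR-146a and the vehicle groups next to each other in the order, while LPS_miR-29a lay above LPS_scramble and LPS_miR-146a above the vehicle groups without overlap. Iigp1 followed with 6.47 ± 3.39, 4.96 ± 2.72, 0.626 ± 0.257 and 0.294 ± 0.235 CPM in the same LPS groups (SD, n = 4), and its only gap between neighbours lay between LPS_miR-29a and LPS_scramble. Igtp, Irgm2 and Tgtp2 also had their only gap at the step down to LPS_scramble, and Ifi47 and Tgtp1 had none. For Iigp1, the first place of LPS_miR-7a and the gap rest on reading LPS_miR-7a replicate 3 as 139 counts. Read as 0.139 counts, as without group levels, that library would lie below every LPS_scramble library, and neither would be certain. Per kb of exon, the level in LPS_miR-7a was highest for Irgm1 at 17.2 CPM, followed by Igtp at 13.5, Irgm2 at 9.44, Ifi47 at 6.83, Tgtp2 at 3.65 and Iigp1 at 1.11.

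Other genes of the pathway were read from lists, whose counts are descriptions, since low genes can enter a test through 1 group. All list values come from fits without the replicate block. Of all genes, 18% were called in either direction with LPS in scramble cells. Against scramble under LPS the shares were 2.85% for miR-7a, 4.9% for miR-29a and 2.39% for miR-146a. Of 9 further family members 6 were tested with LPS in scramble cells, where Gm12250 (Irgb10) rose by 3.42 ± 0.63 on the log2 scale and Irgc1 fell by 3.36 (limma-voom adjusted p = 0.00407 and 0.00109). Under LPS 1 of 6 was called for each of miR-7a and miR-29a and 0 of 6 for miR-146a by limma-voom, where 1 had an unadjusted p under 0.05. These were Gm4951 with miR-7a, at 2.19 ± 0.47, and Gm12250 with miR-29a, at 1.28 ± 0.30 (SE, limma-voom adjusted p = 0.0329 and 0.0316). The list medians were 0.52 for miR-7a, 0.12 for miR-29a and 0.33 for miR-146a.

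Guanylate-binding proteins are larger interferon-induced GTPases that act beside this family on parasite membranes. Gbp6 and Gbp11 each stand in 2 rows of the table, and the first row was used, which for Gbp6 is the row with far fewer counts. With LPS in scramble cells 4 of 4 tested rose, with a median log2 fold change of 2.80, and Gbp3 rose by 3.21 ± 0.27. Against scramble under LPS, 3 of 7 were higher with miR-7a (Gbp4, Gbp7 and Gbp11), 3 of 7 with miR-29a (Gbp3, Gbp5 and Gbp7) and 0 of 5 with miR-146a by limma-voom, where 1 had an unadjusted p under 0.05.

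In interferon signalling, 6 of 13 tested genes rose with LPS in scramble cells and 0 fell. Irf7, a transcription factor of the interferon response, rose by 3.85 ± 0.31, Irf9 by 1.45 ± 0.17 and Usp18, a brake on interferon receptor signalling, by 2.14 ± 0.29. Under LPS 0 of 15 were called with miR-7a by limma-voom and 8 had an unadjusted p under 0.05, among them Usp18, which measured 0.94 ± 0.23 (SE, limma-voom adjusted p = 0.0512). With miR-29a 4 of 15 were higher, among them Stat2, Usp18 and Jak2, at 1.36, 1.19 and 0.54. With miR-146a 1 of 15 was called, the signalling inhibitor Socs3, which fell by 0.67 on the log2 scale.

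Of 11 other interferon-stimulated genes 8 were tested with LPS in scramble cells and 8 rose, Oasl2 by 4.39 ± 0.30 with the lowest adjusted p. Under LPS 3 of 8 were higher with miR-7a (Ifit2, Ifit3 and Rsad2) and 5 of 8 with miR-29a (Ifit1, Ifit2, Rsad2, Oasl1 and Cxcl10), with a median of 1.33 for miR-29a. With miR-146a 0 of 8 were called by limma-voom, 6 had an unadjusted p under 0.05, and the median was -0.61. Of 11 autophagy conjugation genes, which help to load the effectors onto vacuoles, Atg12 rose and Gabarapl1 and Map1lc3a fell with LPS in scramble cells. These 3 of 11 lie near the 18% of all genes called there, and nothing is read from them about the list. For the mimics 0 of 11 were called under LPS by limma-voom, while 2 genes each with miR-29a and with miR-146a, and 0 with miR-7a, reached an unadjusted p under 0.05. Over all genes tested the miR-7a median was 0.0058, the miR-29a median -0.0043 and the miR-146a median -0.011.

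**Figure D4:**
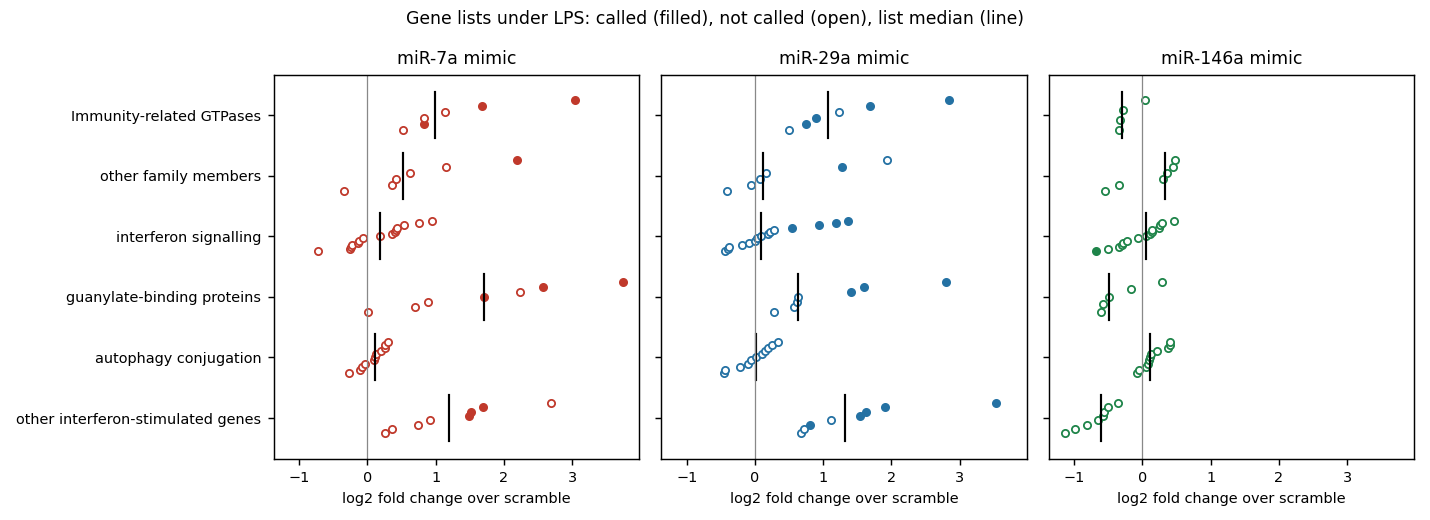
Log2 fold change over scramble under LPS for the members and 5 gene lists, in 1 panel per mimic. Filled points were called, open points were not and black lines are medians, which for the members are at 0.98 for miR-7a, at 1.07 for miR-29a and at -0.31 for miR-146a.

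The genes whose pattern was most like that of the family were ranked by the Pearson correlation, over the 32 libraries, of their log2 CPM with the mean standardised level of the 7 members, among 12296 other genes. The 5 nearest were Parp12, Ifit2, Gm4955, Heatr9 and Ifi44, with correlations of 0.951, 0.948, 0.935, 0.932 and 0.930. The libraries share treatments and depth, so the values describe a pattern only. By Spearman correlation 1 of these 5 remained among the 5 nearest, and over the 8 group means 2 did.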

How the data were processed

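RNA of BV-2 cells was sequenced in 32 libraries after ribosomal RNA depletion. The authors aligned and quantified the reads on GRCm38 with the nf-core rnaseq workflow. The deposited table holds estimated counts that had lost their decimal marks: of 109458 values of 20000 or more, 0.0155% end in 0. Each value was read as having lost 0 to 3 decimals by a model of its last digits and of the level of the gene in its group, condition and table, with replicates spread by 0.4 on the log2 scale. Readings under 0.1 were not considered. Of the values above 0, 28.5% were given lost decimals, and 1.10% had a posterior under 0.9 and were called uncertain. Several forms of this model, and the limit of 0.1, were tried on checks of digits, library totals and uncertain values, with readings of the members among the values seen, before any test was run.

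Restored counts were rounded to whole numbers and fitted, for the libraries compared, with limma 3.58.1 (voom, TMM and filterByExpr of edgeR 4.0.16). The study names filterByExpr, TMM and a limma/edgeR model for pairs of conditions. It does not name voom, and a further log transformation that it names was not applied here. A gene was called at a Benjamini-Hochberg adjusted p under 0.05 over all genes tested and a log2 fold change beyond 0.3. Alternatives were edgeR's quasi-likelihood test, DESeq2 1.42.0, no filter on low counts, the replicate number as a block, a posterior of 0.99, restoration without group levels and leaving out each library. Taking uncertain member values at their first or second reading was added after seeing the data. The restoration and the tests were tested on simulated data. Replicate numbers were taken to pair libraries where all 4 same-numbered pairs correlated above 0.1 in their deviations from group means, as for each mimic against scramble under LPS (0.122 to 0.478). This limit describes the values and not the design. The labels use the same replicate numbers in every group and do not say which libraries share an experiment. The members and gene lists were chosen with earlier results of these data known. Named genes were the members and, per list, up to 4 genes with the lowest adjusted p in LPS against vehicle with scramble or in miR-7a against scramble under LPS; Stat2, Jak2, Gbp5, Gbp7, Gbp11, Ifit1, Oasl1 and Cxcl10 were named after their values were seen. A further gene of the lists is counted but not reported here. Intervals of ratios and floors cover counting error only.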

Additional observations from a re-analysis of the deposited data

Results flagged for a closer look

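For the members and the Tgtp sum, 37 groups of 4 libraries had at least 3 counts in each library and no uncertain reading, and in 1 of them a single library stood far from the others. Irgm1 in VEH_scramble measured 18.04 CPM in replicate 4 against 23.4 to 24.2 CPM in the others, a gap of 0.869 of the group's range, above Dixon's critical value for 4 samples. Chance gives such a gap in about 1 of 20 groups.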

How the results depend on the processing

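Of 35 member values past the test, 528 refits under the alternatives gave 452 that stayed past it, 76 that did not and 0 that changed direction. Refits in which the member was no longer tested are not counted. The settings for uncertain readings are counted, although these values hold no uncertain reading and could not change there, so the tally overstates stability. The number of members called for LPS against vehicle fell to 2, 3 and 3 with scramble, miR-7a and miR-29a at a posterior of 0.99, and to 1, 3, 3 and 1 (miR-146a last) with restoration without group levels. That restoration also gave 1 for miR-7a and 1 for miR-29a against scramble under LPS and 3 for miR-29a against miR-146a. Of all genes, 19.3%, 6.42% and 27.5% were called at a posterior of 0.99, and 17.2%, 5.62%, 25.8% and 4.15%, then 2.35%, 3.94% and 12%, with that restoration, in the same orders. In these refits every member still tested was called, so fewer members tested gave the lower counts, except with miR-146a, where 1 of 2 was called and Ifi47 was not. For miR-146a, LPS against vehicle lost Ifi47 and gave 1 with edgeR, 1 without the filter and 1 with the replicate block. Same-numbered libraries correlated there at 0.0589 to 0.269, which did not meet the limit set for pairing. In these 3 fits 4.06%, 2.07% and 9.15% of all genes were called. miR-7a against scramble under LPS gave 5 with DESeq2 and 6 with the replicate block, where 6.25% and 15.9% of all genes were called, and miR-146a gave 1 with the block, where 14% were. Among comparisons whose numbers met that limit, the block changed only the calls given with the results. Leaving out single libraries gave 3 to 6 (miR-7a) and 1 to 2 (miR-146a) for LPS against vehicle, 0 to 4 (miR-7a) and 0 to 5 (miR-29a) against scramble under LPS, and 1 to 5 (miR-7a) and 4 to 5 (miR-29a) against miR-146a. Values not past the test changed sign 44 times in 790 refits. Irgm2 with miR-146a under LPS became -0.017 with edgeR, -0.024 with DESeq2, -0.027 without the filter and -0.077 with the block. Igtp with miR-7a under vehicle became -0.070, -0.062, -0.036 and -0.052, and the interaction of Tgtp2 with miR-7a -0.20 with edgeR and -0.29 with DESeq2; the cause was not tested. Leaving out 1 library turned the sign of further values not past the test, with ranges of -0.16 to 0.17 for Irgm2 (miR-146a against scramble under LPS), of -0.16 to 0.0083 for Irgm1, -0.21 to 0.18 for Igtp (miR-7a against scramble under vehicle), of -0.075 to 0.093 for Irgm1, -0.080 to 0.19 for Igtp (miR-29a against scramble under vehicle), of -0.15 to 0.71 for Iigp1, -0.050 to 0.21 for Irgm1, -0.23 to 0.12 for Irgm2, -0.14 to 0.12 for Igtp, -0.32 to 0.14 for Ifi47, -0.22 to 0.28 for Tgtp2 (miR-7a against miR-29a under LPS), of -0.54 to 0.13 for Ifi47, -0.060 to 1.01 for Tgtp2 (the interaction of miR-7a with LPS), of -0.020 to 0.31 for Irgm2 (the interaction of miR-29a with LPS), of -0.21 to 0.14 for Irgm1 (the interaction of miR-146a with LPS). Iigp1 and Tgtp1 were at 0 in most vehicle libraries, and the part of depth in this was not tested.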
